A study of Danio rerio with 8 samples.

Results

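The fraction of the fractured zebrafish scale labeled as mature osteoclasts (OCs) carried high levels of RNA for 5 genes that are not standard OC markers. These were *npr1b* (ENSDARG00000018750), *mcoln3* (ENSDARG00000102050), *ckb* (ENSDARG00000069752), *swap70* (ENSDARG00000051819) and *blnk* (ENSDARG00000042722). They are 5 of the 32057 Ensembl genes measured, and all 5 passed the filter on low values. They were chosen by their level in the mature OC libraries relative to the other libraries of this same dataset, so each mature OC value below is a description and carries no test. The identifiers of *npr1b* and *mcoln3* were given, that of *ckb* is the one above 5000 RPM (reads in a gene scaled to a fixed library total) in both mature OC libraries, and those of *swap70* and *blnk* are the ones of highest mean RPM there.

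RNA was measured in 4 fractions that were sorted the day after a scale was cut. These were named osteoblasts (OBs), OC precursors (pOCs), mature OCs (mOCs) and extracellular vesicles derived from OBs (EVs). All fractions came from fractured scales of adult fish, which the labels call wild type and the methods describe as carriers of *trap:GFP* and *osterix:mCherry*. GFP follows upstream sequence of zebrafish *trap* (*acp5a*) and mCherry that of medaka *osterix*, so *acp5* is tied to the sort. OBs were GFP-negative and mCherry-positive, pOCs were GFPlow and mCherry-positive, mOCs were GFPhigh, and EVs were mCherry-positive particles with low Hoechst stain. The fraction names follow the labels. The paper proposes that the GFPlow cells were mostly monocytes or macrophages, and some looked like OBs that held GFP fragments. GFPhigh cells differed in shape and number of nuclei, and the paper proposes that OCs of various stages may be among them. Most GFPhigh cells were also mCherry-positive. That EVs derive from OBs is the paper's reading. It found both microvesicles and apoptotic bodies among these particles, and large ones held mitochondria. Unfractured scales were not analysed here, and the number of fish behind each library is not given in the sources used here. Since the cells were sorted and measured in bulk, fewer cells of a type and less RNA per cell cannot be told apart.

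The 8 deposited libraries were 7 distinct ones, because the values of both OB replicates were identical for all 32057 genes. The column of values for OB replicate 1 was headed with the name of OB replicate 2, so both may be replicate 2. OB was counted as 1 library. The fit therefore assumes that OB varies like the replicated fractions, which cannot be checked here. The libraries held 11814593 to 24435509 reads in genes, and 3 reads corresponded to 0.123 to 0.254 RPM. Of 13 OC marker identifiers, 10 were higher in both mOC libraries than in all others, against 10.8% of all 14006 genes tested. Summed OC markers reached 19416 and 19715 RPM in mOC, 6064 and 6656 RPM in pOC, 3361 RPM in OB, and 4259 and 4360 RPM in EV. Summed osteoblast markers were at 39136 RPM in OB, 15024 and 15417 RPM in pOC, 3483 and 1705 RPM in mOC, and 11484 and 8119 RPM in EV. Markers of other cell types were also present: the summed level of 7 xanthophore marker identifiers was 1396 and 1246 RPM in mOC, 747 and 873 RPM in pOC, 12.3 RPM in OB, and 92.7 and 138 RPM in EV. The 2 most abundant of them, *gch2* and *aox5*, were the only ones higher in both mOC libraries than in all others. *slc2a15b*, *xdh* and both *pax7* identifiers overlapped between mOC and pOC, and *pts* was at 0 in 1 mOC library and at 0.08 RPM in the other. The part of these markers in the levels below was not tested.

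OCs form by fusion of cells of the monocyte lineage and dissolve bone under a sealed, actin-ringed membrane into which they pump acid and release lysosomal proteases. This work uses much ATP, a steady supply of lysosomal membrane, and signals from immune-type receptors that act through adaptors and kinases. Of the 5 genes, *npr1b* encodes a natriuretic peptide receptor that makes cyclic GMP, *mcoln3* a cation channel of endosomes and lysosomes (TRPML3), *ckb* the brain-type creatine kinase that regenerates ATP from phosphocreatine, *swap70* a phosphoinositide-binding regulator of Rac and F-actin, and *blnk* an adaptor that links immune receptor kinases to phospholipase C gamma.

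Both mOC libraries were above every other library for each of the 5 genes, which is what they were chosen for, and 10.8% of all genes tested had this pattern. How far mOC stood above the rest differed between the genes. The lower mOC library exceeded the highest library outside mOC by a ratio of 11.7 for *mcoln3*, 9.57 for *npr1b*, 5.09 for *ckb*, 4.73 for *swap70* and 1.3 for *blnk*. When the mean levels of the 4 fractions were summed, mOC held 89.9% of the sum for *mcoln3*, 89.5% for *npr1b*, 72.7% for *ckb*, 71% for *swap70* and 39.9% for *blnk*. The word specific therefore described *npr1b* and *mcoln3* more closely than *ckb*, whose OB level was 1019 RPM, and it did not describe *blnk*, whose pOC mean was 64.1% of its mOC mean.

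**Figure D1:**
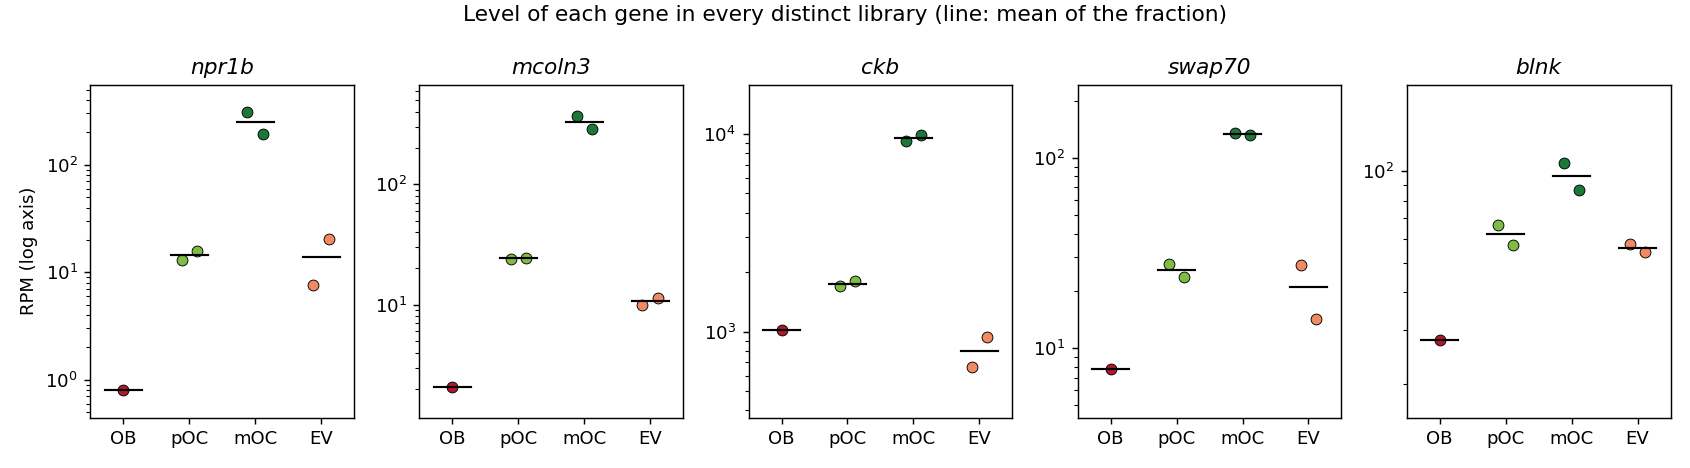
RPM (log axis, a separate scale for each panel) of each gene in the 7 distinct libraries, with OB, pOC, mOC and EV along the horizontal axis, a point for each library and a line for the mean of the fraction. Both mOC points are the highest in every panel, and the distance to the next fraction is smallest for *blnk*, at 86.6 RPM in the lower mOC library against 66.5 RPM in the higher pOC library.

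*npr1b* was at 307 and 195 RPM in mOC, 13.1 and 15.9 RPM in pOC, 7.64 and 20.4 RPM in EV, and 0.8 RPM in OB. The mOC mean of 251 ± 79.2 RPM (SD, n = 2) was 17.3 times the pOC mean, 17.9 times the EV mean and 314 times the OB level. The OB level rests on 12 reads, with an exact (Clopper-Pearson) 95% interval of 0.415 to 1.4 RPM that covers counting error only. The pOC and EV libraries overlapped, as the EV values lay on either side of both pOC values. Of the 5 genes, *npr1b* also differed most between both mOC libraries, replicate 1 being 1.57 times replicate 2, whereas *acp5* was lower in replicate 1, at 1132 against 1538 RPM.

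Of the other natriuretic peptide receptor genes, *npr1a* and *npr2* had the opposite order over the cell fractions, and *npr3* did not exceed 0.54 RPM in any library. *npr1a* (ENSDARG00000031751), the paralog of *npr1b*, was at 43.4 RPM in OB, 12.8 and 15.6 RPM in pOC, 4.09 and 3.81 RPM in mOC, and 5.93 and 0.2 RPM in EV. The ratio of *npr1b* to *npr1a* was 0.0185 in OB, 1.02 in both pOC libraries, and 75 and 51.1 in mOC, higher in both mOC libraries than in OB and pOC. In EV this ratio was 1.29 and 102, a difference set by the low *npr1a* value of EV replicate 2. *npr2* (ENSDARG00000104393), the receptor for C-type natriuretic peptide in mammals, was at 22.1 RPM in OB, 6.18 and 3.86 RPM in pOC, 1 and 1.52 RPM in mOC, and 6.81 and 2.48 RPM in EV. It was lower in mOC than in OB, pOC and EV averaged by limma's test (log2 fold change −1.99 ± 0.48 (SE), adjusted p = 0.0425), whereas *npr1a* did not pass (−1.33 ± 0.67, adjusted p = 0.281).

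A gene was called here, and in each comparison below, at a Benjamini-Hochberg adjusted p under 0.05 over all 14006 genes tested and a change beyond 2-fold, on the log2(RPM + 1) scale. In mOC against the mean of OB, pOC and EV, 9.64% of all genes were called, 3.47% higher and 6.17% lower. Of the other genes of the natriuretic peptide and cGMP list, 9 of 21 were tested, of which 1 was higher, 1 was lower and 7 did not pass. The higher one was *pde5a* (ENSDARG00000051915), which encodes a phosphodiesterase that degrades cGMP. It was at 8.42 and 7.79 RPM in mOC, 1.27 and 0.78 RPM in pOC, 0.13 RPM in OB, and 0.05 and 0 RPM in EV, with no overlap between mOC and the rest (log2 fold change 2.78 ± 0.37, adjusted p = 0.00472). The other copy in the list, *pde5aa* (ENSDARG00000056806), was highest in pOC, at 6.71 and 5.22 RPM, with 2.39 and 1.18 RPM in mOC. It did not pass by limma's test (−0.3 ± 0.49, adjusted p = 0.776). The ligand gene *nppc* ranged from 5.79 to 34 RPM over the 7 libraries, with pOC, mOC and EV overlapping and OB, at 19.5 RPM, above both mOC libraries. *nppb* was at 0 in all, and *nppa* was above 0 only in EV replicate 2, at 0.45 RPM. *corin*, a protease gene of the list, was at 8.42 and 4.57 RPM in mOC and between 0.24 and 3.81 RPM elsewhere. It did not pass by limma's test (1.96 ± 0.5, adjusted p = 0.0534). Among the cGMP-dependent kinases, *prkg1* was at 0.31 and 0 RPM in mOC and 3.88 RPM in OB and did not pass (adjusted p = 0.139). *prkg1a* went the other way, at 1.62 and 0.68 RPM in mOC and 0.4 RPM in OB, and was too low to be tested. The call of *pde5a* was lost without mOC replicate 1 (adjusted p = 0.0725) or mOC replicate 2 (0.0696), and that of *npr2* without any 1 of the pOC and mOC libraries (0.124 to 0.33). Without EV replicate 2, the log2 fold change of *npr1a* was −1.75.

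*mcoln3* was at 372 and 287 RPM in mOC, 23.9 and 24.6 RPM in pOC, 9.95 and 11.3 RPM in EV, and 2.07 RPM in OB (31 reads, 95% interval 1.41 to 2.94 RPM). No 2 fractions overlapped, and the order was mOC, pOC, EV and OB. The mOC mean of 330 ± 59.7 RPM (SD, n = 2) was 13.6 times the pOC mean of 24.3 ± 0.502 RPM, 31 times the EV mean and 159 times the OB level. OB, pOC and EV held 0.628%, 7.36% and 3.22% of the mOC mean, beside 0.937%, 11.4% and 2.95% for *acp5*, the gene whose upstream sequence drives the GFP used in the sort.

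Within the TRPML family the pattern differed from gene to gene. *mcoln3a* (ENSDARG00000078363), the paralog of *mcoln3*, had its lowest values in mOC, at 1.16 and 1.18 RPM, with 8.55 and 8.67 RPM in pOC, 2.81 RPM in OB, and 5.68 and 3.07 RPM in EV. The difference from the other fractions did not pass (log2 fold change −1.41 ± 0.41, adjusted p = 0.0802 by limma's test). The ratio of *mcoln3* to *mcoln3a* was 0.737 in OB, 2.8 and 2.84 in pOC, 320 and 244 in mOC, and 1.75 and 3.68 in EV. *mcoln2* (ENSDARG00000098918) was at 32.1 and 25.7 RPM in mOC, 21.6 and 11.7 RPM in pOC, 10.3 and 9.26 RPM in EV, and 3.28 RPM in OB, and was called higher in mOC (1.69 ± 0.35, adjusted p = 0.0256). *mcoln1* (ENSDARG00000002285), the family member best known for calcium release from lysosomes in mammals, was at 24.5 and 16.9 RPM in mOC and 74.9 and 29.4 RPM in EV and did not pass (−0.18 ± 0.4, adjusted p = 0.848). The second *mcoln1* identifier (ENSDARG00000058848) was at 0 in both mOC libraries and was not tested.

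**Figure D2:**
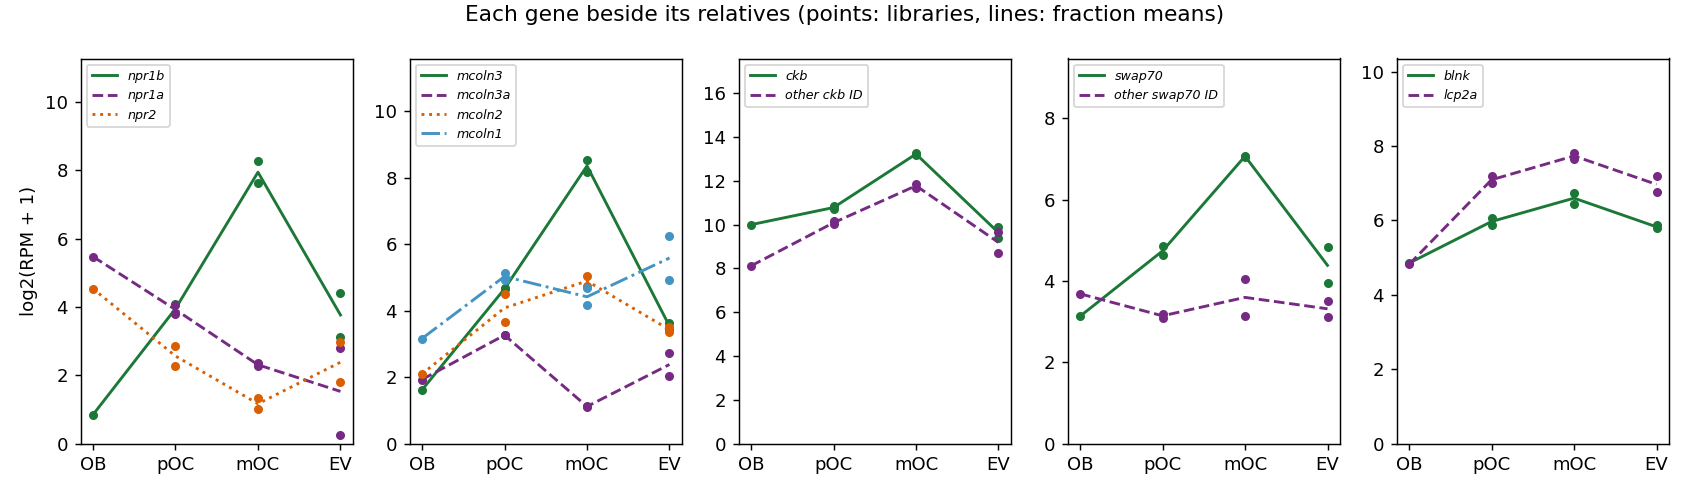
Level on the log2(RPM + 1) scale (vertical axis) in OB, pOC, mOC and EV (horizontal axis) of each of the 5 genes (solid green) and of its relatives in the files (broken lines), with a point for each library and lines through the fraction means. *npr1a*, *npr2* and *mcoln3a* have lower means in mOC than in OB, while the other *ckb* identifier and *lcp2a* peak in mOC like *ckb* and *blnk*.

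Of the 20 other genes of the endolysosomal list, 16 were tested, 3 were higher in mOC, none was lower and 13 did not pass. Beside *mcoln2*, these were *mitf* (ENSDARG00000003732), a transcription factor that OCs of the mouse need, and *ostm1*, the partner of the lysosomal chloride-proton exchanger. Of these, *ostm1* is also in the OC marker list. *mitf* was at 69.7 and 48.6 RPM in mOC and between 6.14 and 27.9 RPM in the other 5 libraries (log2 fold change 2.16 ± 0.47, adjusted p = 0.0317). Summed xanthophore markers were also highest in mOC, at 1396 and 1246 RPM, and their part in the *mitf* level was not tested. The second *mitf* identifier (ENSDARG00000037833) was at 5.02 and 4.82 RPM in mOC and between 0.4 and 4.76 RPM elsewhere. It did not pass by limma's test (1.47 ± 0.51, adjusted p = 0.129). *ostm1* was at 93.2 and 118 RPM in mOC and between 25.8 and 71.9 RPM elsewhere (1.08 ± 0.21, adjusted p = 0.0197). All 3 calls were lost when any 1 of the pOC or mOC libraries was left out.

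*pikfyve*, which makes the lipid that opens TRPML channels, and *tfeb*, a regulator of lysosomal genes, had their highest values in EV. *pikfyve* was at 46.6 RPM in OB, 164 and 161 RPM in pOC, 81 and 64.2 RPM in mOC, and 274 and 335 RPM in EV. *tfeb* was at 18.3 RPM in OB, 78.6 and 123 RPM in pOC, 95.2 and 80.5 RPM in mOC, and 149 and 156 RPM in EV, with pOC and mOC overlapping. Both were called higher in pOC than in OB by limma (adjusted p = 0.0343 and 0.0321), as were 1.28% of all genes, and higher in EV than in OB (adjusted p = 0.00918 and 0.0116), as were 2.79%. The calls in pOC were lost without any 1 of the pOC and mOC libraries (adjusted p = 0.114 to 0.42) and without a filter (0.0623 and 0.0585), and those in EV without pOC replicate 1 (0.1) or pOC replicate 2 (0.0963) and with edgeR (0.145), that of *tfeb* also without mOC replicate 1 (0.0598) or mOC replicate 2 (0.0573).

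*ckb* was at 9220.5 and 9827 RPM in mOC, 1694 and 1810.2 RPM in pOC, 662 and 944 RPM in EV, and 1019 RPM in OB (15227 reads, 95% interval 1003 to 1035 RPM). The mOC mean of 9524 ± 429 RPM (SD, n = 2) was 5.44 times the pOC mean, 11.9 times the EV mean and 9.35 times the OB level. No 2 fractions overlapped. Of the 5 genes, only *ckb* had less RNA in both EV libraries than in OB. The share of all genes with that pattern is not given here, and the median log2 fold change of EV against OB over all genes was −0.18. The EV mean of *ckb* was 0.788 times the OB level, which did not pass (adjusted p = 0.411 by limma's test). Both mOC libraries were nearly alike, replicate 1 being 0.938 times replicate 2.

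A second identifier with the symbol *ckb* (ENSDARG00000043257) did not reach the limit of 5000 RPM, at 3271 and 3723 RPM in mOC, 1139 and 1030.3 RPM in pOC, 421 and 798 RPM in EV, and 276 RPM in OB. The files and the gene name table do not give which of the 2 is the a or the b copy, and the copies may share reads. Its mOC level was read by the rule too and carries no test. The ratio of the first to the second was 3.69 in OB, 1.49 and 1.76 in pOC, 2.82 and 2.64 in mOC, and 1.57 and 1.18 in EV, so it varied far less than the ratios of the receptor and channel paralogs. The muscle creatine kinases *ckma* and *ckmb* stayed under 1 RPM in all libraries, the mitochondrial *ckmt2* had 1 identifier at 0 in all libraries and 1 at no more than 0.16 RPM, and summed skeletal muscle markers were at 1.77 and 4.07 RPM in mOC against 13.4 RPM in OB.

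Of the 12 other genes of the creatine list, 7 were tested, the second *ckb* being left out, of which 1 was higher in mOC, none was lower and 6 did not pass. The higher one was *slc6a8* (ENSDARG00000043646), the creatine transporter. It was at 28.5 and 35.7 RPM in mOC, 6.18 and 16.5 RPM in pOC, 4.95 RPM in OB and 0 in both EV libraries (log2 fold change 3.02 ± 0.46, adjusted p = 0.00785). Its call was lost without mOC replicate 1 (0.115) or mOC replicate 2 (0.141). The genes of creatine synthesis were at low levels and did not pass: *gatm* was at 2.01 and 1.86 RPM in mOC (adjusted p = 0.231) and *gamt* at 0.7 and 1.35 RPM (0.917).

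*swap70* was at 134 and 131 RPM in mOC, 27.8 and 23.7 RPM in pOC, 27.4 and 14.3 RPM in EV, and 7.76 RPM in OB (116 reads, 95% interval 6.41 to 9.31 RPM). Its mOC libraries were the closest of the 5 genes, with a mean of 133 ± 2.27 RPM (SD, n = 2) that was 5.16 times the pOC mean, 6.37 times the EV mean and 17.1 times the OB level. The pOC and EV values overlapped, while OB lay below all other libraries. In the mouse this protein is needed for the actin ring of OCs.

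The second *swap70* identifier (ENSDARG00000057286), set aside by the rule for its lower mOC mean and therefore given with no test, was at 15.6 and 7.79 RPM in mOC, 8.18 and 7.48 RPM in pOC, 7.64 and 10.5 RPM in EV, and 11.8 RPM in OB, with overlap of all fractions that have 2 libraries. The ratio of *swap70* to this copy was 0.655 in OB, 3.39 and 3.17 in pOC, 8.62 and 16.8 in mOC, and 3.59 and 1.37 in EV. The related *def6* (ENSDARG00000012247) and *def6c* stayed under 9 RPM in all libraries and did not pass, and a second *def6* identifier was too low to be tested.

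*blnk* was at 107 and 86.6 RPM in mOC, 66.5 and 57.4 RPM in pOC, 57.5 and 54.2 RPM in EV, and 27.9 RPM in OB (417 reads, 95% interval 25.3 to 30.7 RPM). The mOC mean of 96.6 ± 14.1 RPM (SD, n = 2) was 1.56 times the pOC mean, 1.73 times the EV mean and 3.46 times the OB level. The pOC and EV libraries overlapped, and OB lay below all others. *blnk* is best known from B cells, so their markers were read beside it. The summed level of 9 B cell marker identifiers was highest in OB, at 27.2 RPM, and 10.5 and 5.5 RPM in mOC, 14.5 and 16.2 RPM in pOC, and 17.9 and 11 RPM in EV. Without *ebf1*, which held most of the OB sum, the order turned, with 1.27 RPM in OB, 8.64 and 11.2 RPM in pOC, 10.1 and 5.08 RPM in mOC, and 8.82 and 8.62 RPM in EV. *cd22*, like *blnk*, was lowest in OB, at 1 RPM, with 8.31 and 10.1 RPM in pOC, 3.55 and 4.15 RPM in mOC, and 8.48 and 8.62 RPM in EV. *cd79b* and *cd37* were at 0 in all libraries, *cd79a* did not exceed 0.94 RPM in any, and *ighm* was at 6.41 RPM in mOC replicate 1 and at 0 in mOC replicate 2. The part of B cell RNA in the *blnk* levels was not tested.

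*lcp2a* (ENSDARG00000055955), which encodes the adaptor SLP-76 and acts beside BLNK in OCs of the mouse, was at 224 and 201 RPM in mOC, 144 and 127 RPM in pOC, 107 and 144 RPM in EV, and 27.2 RPM in OB. It was called higher in mOC (log2 fold change 1.44 ± 0.2, adjusted p = 0.00527 by limma's test). The ratio of *blnk* to *lcp2a* was 1.02 in OB and between 0.376 and 0.537 in the other 6 libraries. In this ratio the pOC and mOC libraries overlapped, and the EV values lay on either side of both.

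Of the 29 other genes of the immunoreceptor list, 24 were tested, 6 were higher in mOC, 2 were lower and 16 did not pass. The median log2 fold change of the 24 genes was 0.76, beside −0.09 over all genes. In pOC against OB, limma called 4 of the 24 higher and none lower, at a median of 1.54 beside −0.03 over all genes. These 4 were *lcp2a*, *src*, *fgr* and *fcer1gl*. In EV against OB, 6 were called higher and 1 lower, at a median of 0.75 beside −0.18. Of all genes, 1.28% and 2.79% were called higher in these comparisons. The 4 genes higher in mOC of smallest p were *nfatc1*, *tyrobp*, *src* and *lcp2a*, of which *nfatc1* is also in the OC marker list. *tyrobp* (ENSDARG00000094894), which encodes the signaling subunit DAP12, was at 57.2 and 75.2 RPM in mOC, 10.4 and 13 RPM in pOC, 1.71 and 5.55 RPM in EV, and 1.87 RPM in OB (3.64 ± 0.43, adjusted p = 0.00316). *src*, a kinase that OCs of the mouse need to resorb bone, was at 190 and 213 RPM in mOC and between 39.7 and 128 RPM elsewhere (1.33 ± 0.18, adjusted p = 0.00493). *fgr*, another kinase of that family, and *fcer1gl* were also higher in mOC, at 2.06 ± 0.28 (adjusted p = 0.00531) and 1.31 ± 0.24 (0.0167), and were named after their values were seen. *fcer1gl* was at 85.3 and 98.8 RPM in mOC, 77.7 and 62.6 RPM in pOC, 36 and 51.6 RPM in EV, and 15.8 RPM in OB.

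The 2 genes lower in mOC, also named after their values were seen, were *fcer1g*, which encodes another signaling subunit, and the kinase *hck*. *fcer1g* (ENSDARG00000103276) was at 0.54 and 0.42 RPM in mOC, 9.41 and 9.08 RPM in pOC, 5.78 and 7.58 RPM in EV, and 2.21 RPM in OB (−2.09 ± 0.39, adjusted p = 0.0168), and *hck* fell by 1.98 on the log2 scale (adjusted p = 0.0491). Summed macrophage markers were also lower in mOC than in pOC and EV, but unlike these 2 genes they were lowest in OB. They were at 9971 and 8390 RPM in pOC, 10236 and 12175 RPM in EV, 1564 and 1546 RPM in mOC and 1238 RPM in OB. Most of these sums in pOC and EV was *lgmn*, and without it they were 1422 and 1321 RPM in pOC, 1134 and 1450 RPM in EV, 965 and 1078 RPM in mOC, and 255 RPM in OB. *spi1* was higher in both mOC libraries, at 713 and 779 RPM, than in pOC, at 593 and 554 RPM, and *csf1ra* overlapped between mOC and pOC. The other listed macrophage markers were lower in both mOC libraries than in both pOC libraries. *marco* was at 21 and 20.3 RPM in mOC against 251 and 210 RPM in pOC. *irf8* was at 7.65 and 9.73 against 75.7 and 63.8 RPM, and *cd74a* at 49.2 and 64.8 against 318 and 280 RPM. *c1qa*, *c1qb* and *c1qc* did not exceed 1.1 RPM in mOC. The part of these markers in the result was not tested. The kinases nearest to BLNK in B cells did not pass: *syk* was at 60.9 and 39.6 RPM in mOC and 48.1 and 37.3 RPM in pOC (1.1 ± 0.3, adjusted p = 0.0628), *btk* stayed under 2 RPM (adjusted p = 0.875), and its relative *tec* was at 144 and 115 RPM in mOC and 207 and 150 RPM in pOC (adjusted p = 0.77). Without mOC replicate 1 none of the genes was called higher by limma, and without mOC replicate 2 only *nfatc1* was. Both lower calls were lost without any 1 of the pOC and mOC libraries.

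**Figure D3:**
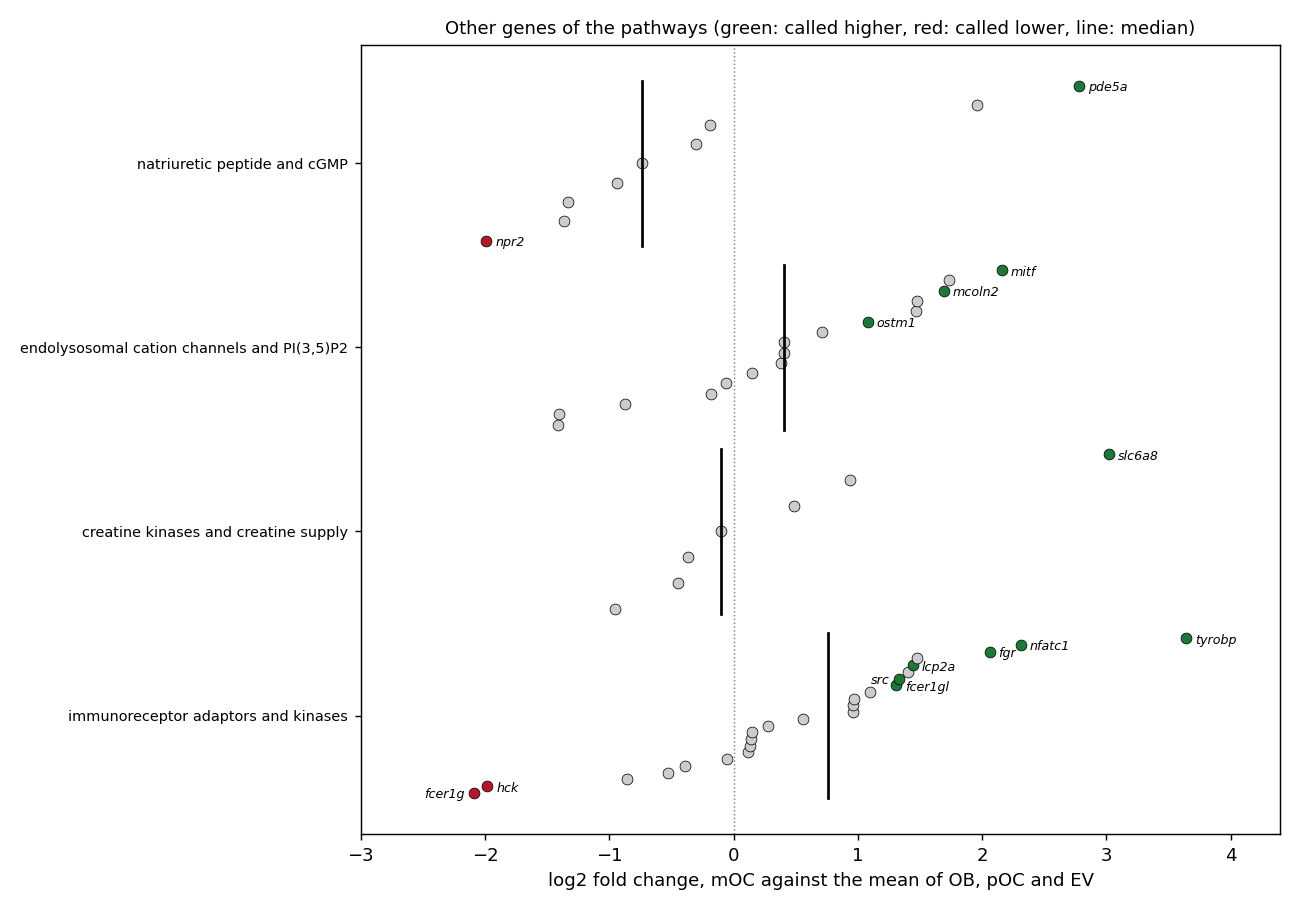
Log2 fold change on the log2(RPM + 1) scale of mOC against the mean of OB, pOC and EV (horizontal axis) for the tested genes of 4 pathway lists, the 5 genes themselves and the second *ckb* left out, with a point for each gene and a vertical line at the median of the list. Green points were called higher, red ones lower and grey ones not called. The medians run from −0.74 for natriuretic peptide and cGMP to 0.76 for the immunoreceptor list.

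The comparisons among OB, pOC and EV were not themselves used to choose the 5 genes and were tested. They share the OB, pOC and EV libraries with each other. The choice set mOC against the levels in these same libraries, so the tests are not independent of the choice. All 5 genes were higher in both pOC libraries than in OB, and so were 37.4% of all genes tested and 57.9% of the 1512 genes that, like these 5, were highest in both mOC libraries. The step pattern of OB below both pOC and pOC below both mOC, the second step of which the choice fixed, held for all 5 and for 8.26% of all genes. The log2 fold change of pOC against OB was 3.1 ± 0.6 (SE) for *npr1b*, 3.04 ± 0.36 for *mcoln3*, 1.61 ± 0.44 for *swap70*, 1.12 ± 0.3 for *blnk* and 0.78 ± 0.23 for *ckb*, beside a median of −0.03 over all genes.

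Of these, only *mcoln3* was called by limma in pOC against OB (adjusted p = 0.0222), where 1.39% of all genes were called, 1.28% higher and 0.114% lower. The adjusted p was 0.0687 for *npr1b*, 0.153 for *blnk*, 0.162 for *swap70* and 0.196 for *ckb*. All 5 had an unadjusted p under 0.05, as had 13.6% of all genes. That share was not computed among the genes highest in both mOC libraries. The call of *mcoln3* was lost without pOC replicate 1 (0.378), pOC replicate 2 (0.265), mOC replicate 1 (0.113) or mOC replicate 2 (0.106), at log2 fold changes of 3.02 to 3.06. Without EV replicate 1 or EV replicate 2, the log2 fold changes of all 5 genes were unchanged. OC, xanthophore and macrophage markers were higher in pOC than in OB too, and osteoblast markers were lower, with the sums given above. The part of these markers in the differences between pOC and OB was not tested.

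In EV, 4 of the 5 genes were higher than in OB in both libraries, as were 28.5% of all genes, and *ckb* was lower in both. The share of all genes lower in both is not given here. The median log2 fold change of all genes was −0.18. *npr1b* (log2 fold change 2.92 ± 0.6, 95% interval 1.5 to 4.33, adjusted p = 0.0425) and *mcoln3* (1.92 ± 0.36, 1.08 to 2.76, adjusted p = 0.0316) were called higher by limma, where 5.05% of all genes were called, 2.79% higher and 2.26% lower. *swap70* (1.25 ± 0.44, adjusted p = 0.156), *blnk* (0.98 ± 0.3, 0.114) and *ckb* (−0.37 ± 0.23, 0.411) did not pass, and 4 of the 5 had an unadjusted p under 0.05, as had 22% of all genes. Summed OC markers were higher in EV than in OB, at 4259 and 4360 against 3361 RPM. Among them *acp5* was higher, at 35.6 and 43.2 against 12.5 RPM, and *nfatc1* lower, at 27.4 and 15.7 against 124 RPM. Some marker sums of other cell types were higher in EV than in OB as well, among them macrophage markers at 10236 and 12175 against 1238 RPM. Xanthophore markers were at 92.7 and 138 against 12.3 RPM. Melanophore and iridophore markers were at 61.4 and 897 against 8.56 RPM, where EV replicate 2 stood apart. Others were lower in both EV libraries: osteoblast markers at 11484 and 8119 against 39136 RPM, and fibroblast markers at 1093 and 955 against 3478 RPM. Keratinocyte and skeletal muscle markers were lower too. The part of any of these markers in these differences was not tested. EV levels of *npr1b* and *mcoln3* were low, at 5.58% and 3.22% of their mOC means. Both calls were lost without any 1 of the pOC and mOC libraries, at unchanged log2 fold changes. With an EV library left out, EV and OB had 1 library each. The log2 fold change of *swap70* was then 1.7 without EV replicate 2 and 0.81 without EV replicate 1. On recovered reads of the libraries outside pOC, edgeR called neither (adjusted p = 0.172 and 0.145) and no other gene, with 2059 genes at an unadjusted p under 0.05, while DESeq2 called 1057 genes, of which 2 were among the 5.

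**Figure D4:**
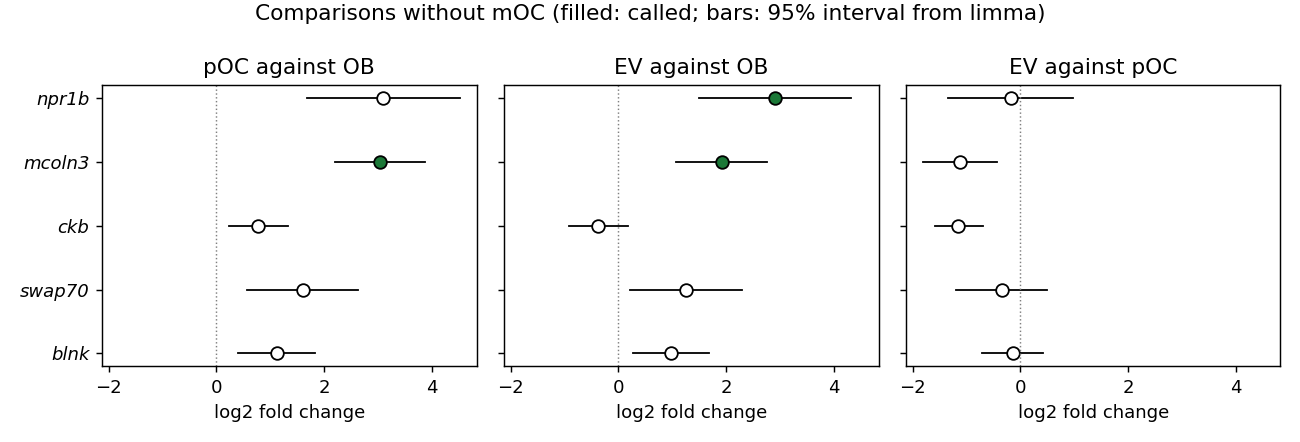
Log2 fold change on the log2(RPM + 1) scale (horizontal axis) of the 5 genes in pOC against OB, EV against OB and EV against pOC, with bars for the 95% interval from limma and filled points for called genes. *mcoln3* is filled in the first panel, *npr1b* and *mcoln3* in the second and no gene in the third, where the points lie between −1.15 and −0.14.

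Between EV and pOC no gene of the 5 was called by limma, and 2 of them, *mcoln3* and *ckb*, had an unadjusted p under 0.05, as had 16.8% of all genes. Only 0.0357% of all genes were called, 0.0143% higher and 0.0214% lower, and no other tool was run on this pair. *ckb* (−1.15 ± 0.19, 95% interval −1.59 to −0.7, adjusted p = 0.0875) and *mcoln3* (−1.12 ± 0.29, −1.81 to −0.44, adjusted p = 0.14) were lower in both EV libraries than in both pOC libraries, as were 28.3% of all genes. The intervals of *npr1b* (−1.34 to 0.97), *swap70* (−1.2 to 0.49) and *blnk* (−0.72 to 0.43) held 0. Without EV replicate 2 the log2 fold change of *ckb* was −1.4. The sign of *npr1b* turned without EV replicate 1 (0.47) and that of *swap70* without EV replicate 2 (0.09).

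The levels of the 5 genes over the 4 fractions were also compared by their shape. Shape was compared by the root mean square difference of the log2(RPM + 1) fraction means after each gene was centred, a description over 4 points that share all libraries. The mOC levels that the choice used enter this difference, and no background of other pairs was computed. Within the 5 genes, *npr1b* and *mcoln3* were closest, at 0.4, followed by *ckb* and *swap70*, at 0.57. These 4 genes each lay nearer to a gene outside the 5, at 0.376, 0.295, 0.141 and 0.167 in that order. In EV against OB, the log2 fold changes of *ckb* and *swap70* had opposite signs (−0.37 and 1.25). *blnk* was farthest from *npr1b*, at 1.92, and nearest to *swap70*, at 0.85.

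Among the 2145 other genes with a mean of at least 50 RPM in mOC, the nearest to *mcoln3* was *acp5*, at 0.295, which encodes the acid phosphatase TRAP. *acp5* was also second for *npr1b*, at 0.65, behind a gene without a symbol (ENSDARG00000117337, 0.376) that was at 156 and 91 RPM in mOC and between 0.74 and 13 RPM elsewhere. The same gene without a symbol (0.39) and the membrane skeleton gene *epb41b* (0.646) followed *acp5* for *mcoln3*, and *epb41b* came next after *acp5* for *npr1b*, at 0.8.

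*ckb* was nearest to *atp1a3b*, at 0.141, which encodes a subunit of the sodium and potassium pump, and then to *frrs1* (0.225) and *ica1l* (0.229). *atp1a3b* was at 497 and 336 RPM in mOC and between 12.8 and 87.1 RPM elsewhere. The nearest to *swap70* were *snx10b* (0.167), *iqgap2* (0.185), a scaffold of actin and small GTPases, and si:ch211-198m17.1 (0.231). *snx10b* is a zebrafish counterpart of the sorting nexin gene that is mutated in a human osteopetrosis. *snx10b* was at 116 and 126 RPM in mOC and between 7.89 and 34.6 RPM elsewhere. *blnk* was nearest to *uqcrfs1* (0.057), a subunit of mitochondrial complex III, *rac2* (0.067) and *tpd52l2a* (0.102), and *uqcrfs1* was at 359 and 394 RPM in mOC and between 123 and 270.5 RPM elsewhere.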

How the data were processed

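RNA of the 4 fractions was amplified by Quartz-Seq (oligo-dT priming and PCR, no molecular identifiers). The authors aligned the reads with HISAT2 2.1.0 to the GRCz11 genome, and the deposited RPM values were made with Subread 1.6.4. The sources used here do not give the strand setting or the annotation release. RPM were used unscaled. Of values above 0, 97.1% to 100% lay within 0.1 of a whole read in OB, mOC and EV, but 83% and 82% in pOC, whose reads were used for depth only.

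limma 3.58.1 (R 4.3.3, trend and robust) was fitted on the log2(RPM + 1) scale to 14006 genes that reached 1 RPM in 2 or more of 7 distinct libraries, with 3 residual degrees of freedom. For EV against OB, the recovered reads without pOC were also tested with edgeR 4.0.16 (quasi-likelihood) and DESeq2 1.42.0. A p-value measures the spread between the libraries of pOC, mOC and EV, and no spread of OB enters it. The paper states 2 biological replicates for this experiment, whereas both OB libraries held the same values.

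The 5 genes and the lists were chosen with earlier results of these data known. Named beside them were relatives, the 3 nearest genes by shape, up to 4 called genes of smallest p per list, and markers. Further list members (*nppa*, *nppb*, *nppc*, *corin*, *pde5aa*, *prkg1*, *prkg1a*, *pikfyve*, *tfeb*, the second *mitf* identifier, *gatm*, *gamt*, *syk*, *btk*, *tec*, *fgr*, *fcer1gl*, *fcer1g* and *hck*) were named after their values were seen. Symbols came from the gene name table (28988 genes matched). Where a listed symbol had no match, it was searched again with the final letter dropped. Alternatives were other pseudocounts, filters and scaling, a replicate block, and leaving out libraries. Promoter motifs were not analysed here. The counts of 1 list are not reported here.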

Additional observations from a re-analysis of the deposited data

How the results depend on the processing

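Depth limits *npr1b* and *mcoln3* in OB, where 12 and 31 reads were found, and the single OB library limits every comparison with OB. Both OB files hold the same values, so leaving out an OB replicate changes nothing. edgeR and DESeq2 were not run on comparisons with pOC.

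All genes called in mOC against the mean of the others numbered 1350, 870 without a filter and 251 to 2636 with 1 library left out. In pOC against OB they numbered 195, 78 without a filter, 376 after quantile normalization and 0 to 1045 with 1 library left out. In EV against OB they numbered 707, 0 with edgeR (2059 at an unadjusted p under 0.05; 1057 called by DESeq2) and 0 to 2945 with 1 library left out. In EV against pOC they numbered 5, with 0 at a pseudocount of 0.1, 15 at a pseudocount of 5, 0 without a filter, 27 with a filter of 5 RPM, 33 after quantile normalization and 0 to 1639 with 1 library left out. Counts rose in these fits when an EV library was left out and fell when a pOC or mOC library was. Where limma called 0 with a library left out, 982 to 1477 genes (pOC against OB), 2379 to 2431 (EV against OB) and 1159 to 1824 (EV against pOC) had an unadjusted p under 0.05.

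Of the 5 genes, 1 was called in pOC against OB, 2 with a filter of 5 RPM or after quantile normalization (*npr1b* was added, adjusted p = 0.0478 and 0.0314), and 0 to 4 with 1 library left out. In EV against OB, 2 were called, 0 at a pseudocount of 5 (*npr1b* 1.63, adjusted p = 0.0992; *mcoln3* 1.14, 0.0753), 1 without a filter, 0 with edgeR, 2 with DESeq2, and 0 to 3 with 1 library left out. In EV against pOC, 0 were called, and 0 to 1 with 1 library left out. With 1 library left out, the log2 fold change of *npr1b* there ranged from −0.84 to 0.47 and that of *swap70* from −0.8 to 0.09. Leaving out the OB library, an alternative chosen after seeing the data, left 5 genes called in EV against pOC and none of the 5 genes described.

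Replicate numbers were not taken as pairs, since the deviations of same-numbered libraries correlated at 0.172 for pOC and mOC and at 0.07 for the other pairs. With a replicate block, 24 genes were called in EV against pOC, 243 in pOC against OB, 744 in EV against OB and 1403 in mOC, and the 5 genes had 1, 2 and 0 calls as before.

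Over the pathway genes in mOC against the others, 169 of the recomputed values kept direction and call, 49 lost the call, 3 gained it and 5 changed sign. All 5 were of genes that were not called. *mcoln1* (ENSDARG00000002285) was at 0.04 after quantile normalization, and with 1 library left out it ranged from −0.43 to 0.08, *def6* (ENSDARG00000012247) from −0.81 to 0.05 and *def6c* from −1.11 to 0.26.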
